A study of Mus musculus with 9 samples.

Results

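The genes described were 10 core members of the Notch pathway, chosen by name: the ligands Jag1, Jag2 and Dll1, the receptors Notch1, Notch2 and Notch3, and the transcriptional targets Hes1, Hey1, Hey2 and Nrarp. All 10 were among the 24421 genes of the count table, and 8 of the 10 were among the 12575 genes with enough reads to be tested. Hey1 and Hey2 were not tested, and Notch3 had enough reads in 3D cultures but few in 2D cultures, so that its presence among the tested genes rested on the 3D libraries. RNA-seq of poly(A) RNA was available for 9 libraries of the mouse mammary carcinoma line 4T1, which forms lung metastases when injected into mice. The cells were unmodified and grew for 5 days in serum-containing RPMI medium. The 3D cultures grew as spheroids on plates covered with soft agar, and the 2D cultures grew as attached monolayers. The conditions were 3D without added palmitate (which, per the methods, received the albumin and ethanol of the fatty acid stock), 3D with 75 µM palmitate and 2D with 75 µM palmitate, with 3 libraries each. Culture form was therefore compared only in the presence of palmitate, and palmitate only in 3D, since 2D cells without it were not analysed here.

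Notch receptors sit in the plasma membrane and bind Jagged or Delta-like ligands that are anchored in the membrane of a neighbouring cell. Binding exposes the receptor to ADAM proteases and then to γ-secretase, which frees an intracellular domain that enters the nucleus, joins the DNA-binding protein RBPJ and a Mastermind coactivator, and switches on HES, HEY and Nrarp genes. In the mammary gland the pathway takes part in luminal cell fate, and it is known for activity in breast cancer. RNA levels do not show whether a receptor was cleaved.

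Total counts ranged from 6595514 in replicate 3 of 3D with palmitate to 31177756 in a 2D library, and 3 counts corresponded to 0.0961 to 0.459 CPM (read counts relative to library size, scaled by edgeR's TMM factors) depending on the library. Each of 6 epithelial markers passed the filter, with a summed level of 5028 to 5081 CPM in 3D, 4965 to 5192 CPM in 3D with palmitate and 3904 to 4218 CPM in 2D. None of 6 endothelial markers reached more than 8 counts in a library. Their sum was 0.325 to 0.614 CPM in 3D, 0.153 to 0.552 CPM in 3D with palmitate and 0.481 to 0.662 CPM in 2D, with Emcn at 0 throughout. Of 6 immune markers only Cd68 was tested. Their sum was 7.17 to 9.02, 8.88 to 11.6 and 24.6 to 27.9 CPM in the same order, most of it Cd68, with Cd3e at 0. Ptprc and Itgam, at no more than 11 and 7 counts, went the other way. Their means were 0.442 and 0.101 CPM in 3D with palmitate against 0.0765 and 0.0214 CPM in 2D. Of 6 fibroblast markers 3 were tested. Their sum was 91.8 to 107, 93.4 to 111 and 33.2 to 34.6 CPM, nearly all of it Pdgfra, while Dcn did not exceed 1 count. Pdgfra, and with it the fibroblast sum, thus moved with culture form as several Notch genes did. Col1a1 and Col1a2, also tested, were lower in 3D with palmitate than in 2D, with means of 0.845 against 2.18 and 0.0633 against 1.31 CPM. The part of either marker list in the results was not tested. In such bulk RNA a lower level in each cell and fewer cells with the RNA cannot be told apart.

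The first comparison asked how 3D spheroids and 2D monolayers differed when both had palmitate. Of the 8 tested members, 7 passed an edgeR adjusted p of 0.05, with 6 higher in 3D (Jag1, Dll1, Notch1, Notch2, Notch3 and Nrarp) and 1 lower (Jag2). Across all tested genes 68.3% passed in this comparison, 34.5% higher and 33.9% lower, so a call by itself was the common state of a gene here. With each library's trend over GC content and exon length (the union of a gene's exons) removed, 3866 genes were higher and 5162 lower. The main fit had 4335 and 4259, and the members' calls were the same. The 3 libraries of 1 group lay wholly above or below those of the other for the same 7 members, against 69.4% of all tested genes. The median log2 fold change was 0.81 over the 8 members and 0.01 over all tested genes. The second comparison asked what added palmitate changed within 3D cultures. Only Notch3 among the 8 members passed, and it was lower with palmitate. In this comparison 2.19% of all tested genes passed, 1.38% higher and 0.811% lower. That split was 173 higher and 102 lower genes, and 106 higher and 121 lower with libraries scaled by their total counts alone, which left the members' calls as they were. Among the members DESeq2 called Notch1 and Notch3, both lower, beside 394 genes in all, 235 higher and 159 lower. Both comparisons use the same 3 libraries of 3D cultures with palmitate and are not independent of each other.

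**Figure D1:**
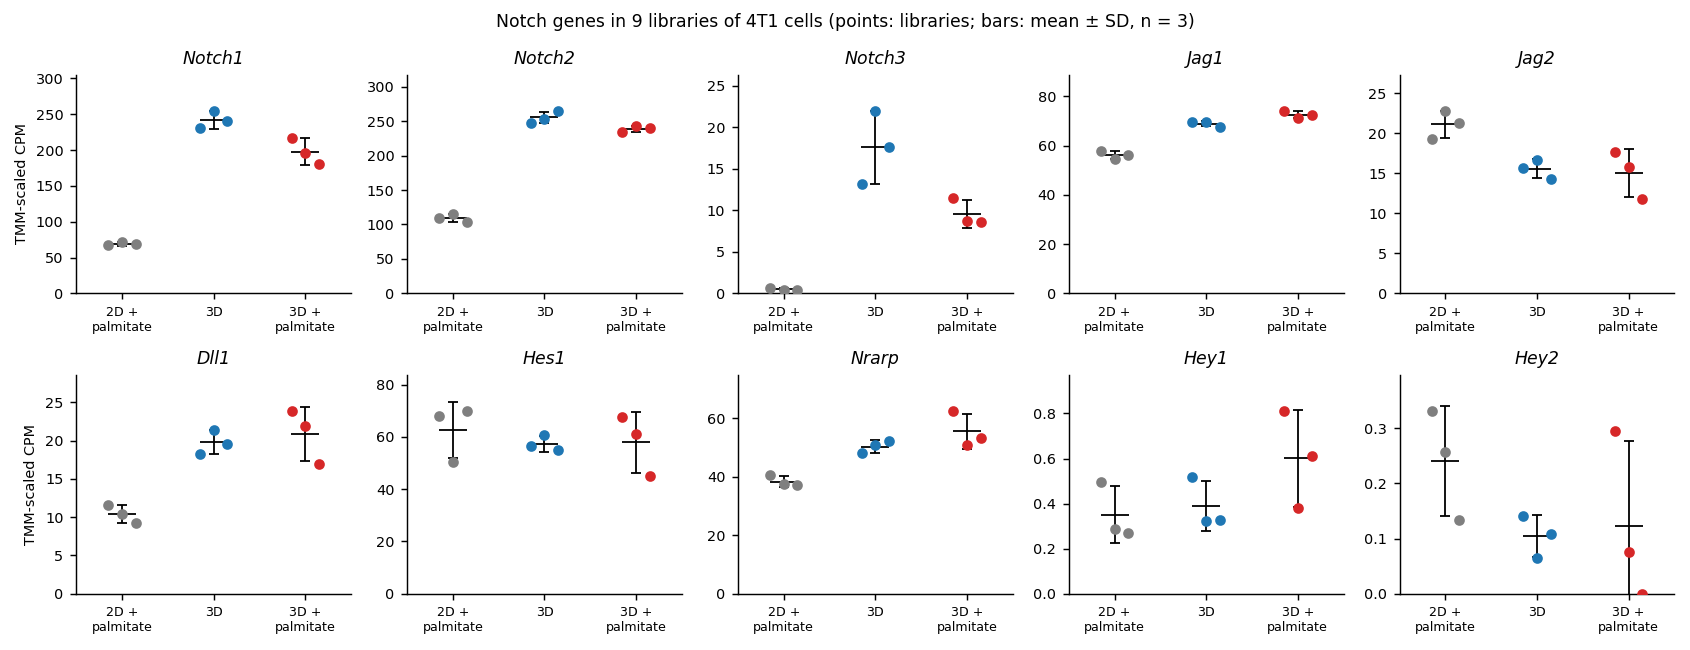
TMM-scaled CPM of the 10 members (vertical axes, each from 0) in 2D with palmitate, 3D and 3D with palmitate (horizontal axes), where points are libraries and bars the mean ± SD of 3 libraries. The lower bar of Hey2 in 3D with palmitate is cut at 0. Notch1, Notch2 and Notch3 lie far above the 2D libraries in all 6 3D libraries, Jag2 lies below them, and the Hes1 groups overlap.

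Among the ligands, Dll1 and Jag1 were higher in 3D and Jag2 was lower. Dll1, a Delta-like ligand best known from somite formation, lies at chr17:15367354-15376872 on the minus strand of GRCm38. It had 11.7, 10.4 and 9.22 CPM in the 2D libraries and 23.8, 22.0 and 17.0 CPM in the 3D libraries with palmitate. The 3D libraries were all above the 2D libraries, by 2.09-fold (log2 fold change 1.06, SE 0.123, edgeR adjusted p = 2.74e-06). Without palmitate the 3D libraries held 18.3, 21.5 and 19.6 CPM, within the range of those with palmitate. The palmitate contrast for Dll1 was 0.13 on the log2 scale, with a 95% interval from -0.12 to 0.38 and an adjusted p of 0.634.

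Jag1 (chr2:137081456-137116644, minus strand), the main Jagged ligand of many epithelia, had 57.8, 54.6 and 56.0 CPM in 2D and 74.0, 71.1 and 72.4 CPM in 3D with palmitate. The gap of 1.30-fold was small but much wider than the spread within either group (log2 fold change 0.37, SE 0.0592, edgeR adjusted p = 5.69e-05). With each library's trend over GC content and exon length removed it was 0.22, still past the threshold. The 3D libraries without palmitate had 69.6, 69.4 and 67.7 CPM. These lay just below all 3 libraries with palmitate, yet the difference of 0.08 (interval -0.05 to 0.20) did not pass, with an adjusted p of 0.558.

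Jag2 (chr12:112907819-112929776, minus strand) was the only member that was lower in 3D. It had 19.4, 22.8 and 21.3 CPM in 2D and 17.7, 15.8 and 11.8 CPM in 3D with palmitate, without overlap. The level was 1.35-fold lower (log2 fold change -0.44, SE 0.119, edgeR adjusted p = 0.00458), and the log2 value was -0.68 after removal of the GC and length trend. The lowest value came from the shallowest library, and without that library the log2 fold change was -0.34. In 3D without palmitate it had 15.7, 16.7 and 14.3 CPM. The mean with palmitate, 15.1 ± 3.02 CPM (SD, n = 3), was below the 15.6 ± 1.21 CPM without it, whereas the fitted log2 fold change was 0.02 (interval -0.25 to 0.28, adjusted p = 0.967), so no direction can be given.

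Per kilobase of exon, on which genes can be compared, Jag1 was the most abundant of these 3 ligands in every condition, with means of 9.63 CPM per kb in 2D, 11.8 in 3D and 12.4 in 3D with palmitate. Dll1 and Jag2 changed places. In 2D the mean of Jag2, 3.03 CPM per kb, was above the 2.48 of Dll1, and in 3D with palmitate Dll1 had 4.96 against 2.17 for Jag2. The shares that follow are of the sum of these 3 ligands, without the Delta-like ligand Dll4 (means of 1.00 CPM per kb in 2D and 2.72 in 3D with palmitate). Of that sum, Dll1 made up 16.3% ± 1.58 in 2D and 25.2% ± 2.65 in 3D with palmitate (SD, n = 3 each). Jag2 made up 20.1% ± 1.89 and 11.0% ± 1.49, and Jag1 63.6% ± 1.46 and 63.8% ± 4.13. The differences of 8.91 percentage points for Dll1 and -9.05 for Jag2 each had p = 0.1 in a two-sided exact permutation test (adjusted p = 0.171 over 12 share tests), where 0.1 is the smallest p that 3 libraries against 3 can give. For Jag1 the difference was 0.144 points with an exact p of 0.9. Palmitate within 3D moved the 3 ligand shares by 0.217 points for Dll1, -0.911 for Jag2 and 0.693 for Jag1, with exact p values of 0.9, 0.6 and 0.9. Leaving out 1 library changed the sign for Dll1 (-0.693 without replicate 1 and 1.74 without replicate 3 of 3D with palmitate) and for Jag1 (2.18 and -1.67). For Jag2 the same 2 fits gave -1.49 and -0.0703, so no direction can be given for these shares. The Jag1 share between culture forms likewise went from 1.63 to -2.21 points in those fits.

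The receptors were each higher in 3D than in 2D. Notch2 (chr3:98013527-98150361, plus strand), a broadly expressed receptor, had 109, 116 and 103 CPM in 2D and 234, 243 and 240 CPM in 3D with palmitate. The groups were far apart relative to their spread, at 2.18-fold (log2 fold change 1.13, SE 0.0628, edgeR adjusted p = 1.25e-09). Notch1 (chr2:26457903-26516663, minus strand), the receptor best known from T cell leukaemia, rose from 66.9, 71.6 and 68.8 CPM in 2D to 217, 196 and 180 CPM in 3D with palmitate. That was 2.87-fold (log2 fold change 1.52, SE 0.0754, edgeR adjusted p = 3.54e-10). After removal of the GC and length trend the log2 fold changes were 1.14 for Notch1 and 0.79 for Notch2, beside 1.00 for Dll1, and all 3 passed the test.

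Notch3, a receptor known from vascular smooth muscle and also found in luminal mammary progenitors, went from near the detection limit to clear expression. Only 8, 13 and 10 reads fell on it in the 2D libraries, against 312, 114 and 56 reads in 3D with palmitate and 278, 340 and 325 in 3D without it. On the CPM scale these were 0.662, 0.416 and 0.446 in 2D, 11.5, 8.66 and 8.58 in 3D with palmitate, and 13.1, 22.0 and 17.6 in 3D. No 2D library came near a 3D library. The level was 20.7-fold higher in 3D with palmitate than in 2D (log2 fold change 4.37, 95% interval 3.75 to 5.00, edgeR adjusted p = 8.55e-09). The log2 fold change ranged from 4.09 to 4.50 over 19 alternatives. Despite the size of that fold, the level of Notch3 in 3D with palmitate stayed low beside Notch1 and Notch2, at 1.18 CPM per kb against 13.9 and 22.2. Notch4, a receptor outside the members, was similarly low there, at 1.26 CPM per kb.

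Notch3 was also the one member called in the palmitate comparison. It was 1.75-fold lower with palmitate (log2 fold change -0.81, SE 0.172, interval -1.18 to -0.44, edgeR adjusted p = 0.0273), and all 3 libraries with palmitate were below all 3 without it. The direction held in the 19 alternative fits, from -1.01 to -0.63, but the call did not. The adjusted p was 0.0798 with the 2 compared groups alone, 0.0633 with the replicate number as a block and 0.226 with the share of the ribosomal precursor Rn45s as a covariate. It was 0.112 without replicate 2 and 0.105 without replicate 3 of 3D, and 0.136 without replicate 2 of 3D with palmitate, with log2 fold changes of -0.63, -0.81 and -0.73. DESeq2 also called Notch3 lower.

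Notch1 was lower in each 3D library with palmitate than in those without, but did not pass the test. The 3D libraries without palmitate held 231, 254 and 240 CPM, all above the 3 with palmitate, a log2 fold change of -0.28 (SE 0.0724, interval -0.44 to -0.13). Its unadjusted edgeR p of 0.00147 became 0.0574 after adjustment over all tested genes. It passed in DESeq2 (adjusted p = 0.0118), with no filter on low counts (0.00429) and after removal of the GC and length trend (0.00447). Leaving out replicate 1 or replicate 3 of 3D with palmitate also took it past the threshold, at -0.36 (adjusted p = 0.0137) and -0.22 (0.0254). Notch2 had 248, 254 and 265 CPM without palmitate, above all 3 libraries with it, and a log2 fold change of -0.10 (interval -0.23 to 0.04, adjusted p = 0.45). Thus the palmitate groups did not overlap for 4 of the 8 tested members, Notch1, Notch2 and Notch3 below and Jag1 above, where 18.6% of all tested genes had no overlap in this comparison.

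**Figure D2:**
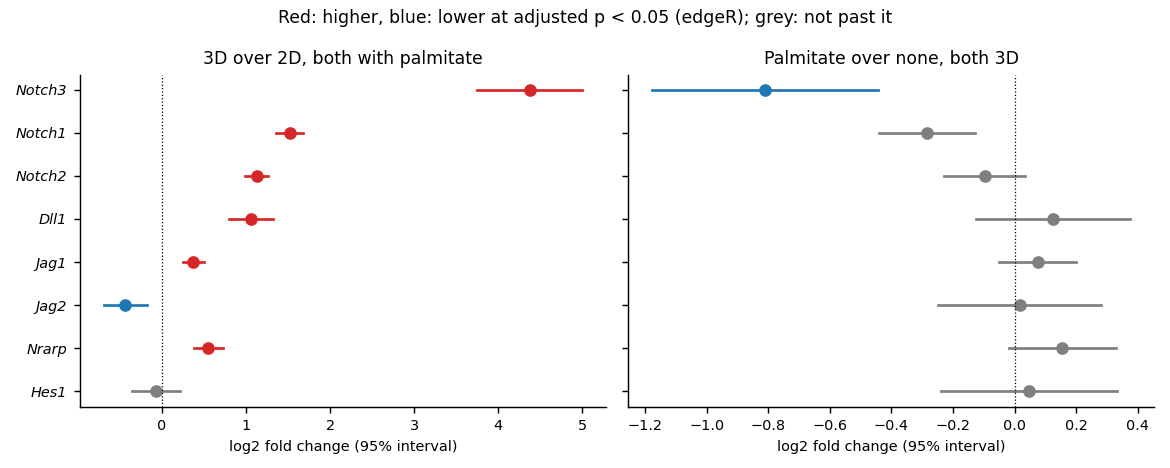
Log2 fold changes (horizontal axes) of the 8 tested members with their 95% intervals from edgeR's quasi-likelihood fit, for 3D over 2D with palmitate (left) and palmitate over none in 3D (right). Red and blue mark members higher and lower at an adjusted p under 0.05 and grey the others, and the axes differ in scale. Notch3 stands at 4.37 on the left and -0.81 on the right.

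Summed per kilobase, the 3 receptors reached 15.1 ± 0.691 CPM per kb in 2D, 42.8 ± 1.79 in 3D and 37.2 ± 1.23 in 3D with palmitate (SD, n = 3 each). The sum of the 3 ligands was 15.1 ± 0.308, 18.8 ± 0.566 and 19.6 ± 1.37 in the same order, so the receptor sum differed more between culture forms than the ligand sum did. Within this receptor sum, which leaves out Notch4, Notch2 held the largest share in each condition. It made up 67.3% ± 0.957 in 2D and 59.6% ± 2.75 in 3D with palmitate, while Notch1 went from 32.2% ± 0.998 to 37.3% ± 2.33. In 3D without palmitate Notch2 held 55.3% and Notch1 39.65%. Without division by length Notch2 held 61.1% in 2D, 53.6% in 3D with palmitate and 49.6% in 3D. Notch1 then held 38.6%, 44.3% and 47.0%, so the size of the lead of Notch2 depended on the exon lengths used. Notch3 made up 0.418% ± 0.116 in 2D, 3.17% ± 0.457 in 3D with palmitate and 5.04% ± 1.09 in 3D without it. Each of these 3 differences between culture forms (-7.77 points for Notch2, 5.02 for Notch1 and 2.75 for Notch3) had the smallest exact permutation p possible, 0.1 (adjusted p = 0.171). With palmitate in 3D, the Notch2 share was 4.25 points higher and the Notch3 share -1.87 points different (p = 0.1 each), and the Notch1 share differed by -2.38 points (exact p = 0.3), or by -3.63 without replicate 1 and -1.33 without replicate 3 of 3D with palmitate.

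**Figure D3:**
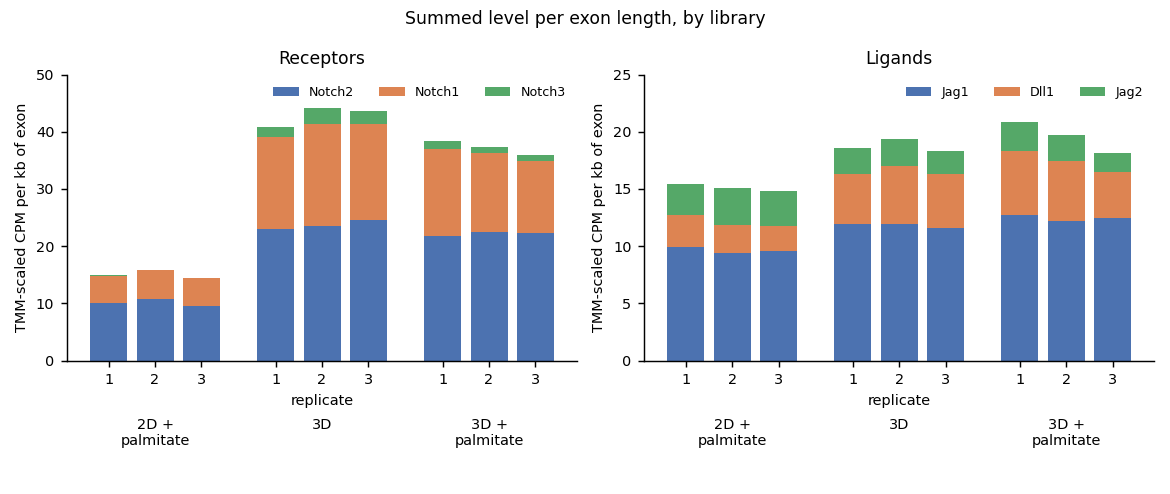
Stacked TMM-scaled CPM per kb of exon (vertical axes from 0, of different range) of Notch1, Notch2 and Notch3 (left) and of Jag1, Jag2 and Dll1 (right) in each of the 9 libraries (horizontal axes, by condition and replicate). The receptor stacks are 14.5 to 15.8 in 2D, 40.8 to 44.1 in 3D and 35.9 to 38.4 in 3D with palmitate, and the ligand stacks differ less.

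The targets did not move together. Nrarp (chr2:25180758-25183339, plus strand) encodes a short ankyrin repeat protein that Notch induces and that in turn limits the pathway. It had 40.6, 37.4 and 37.2 CPM in 2D and 62.5, 50.9 and 53.4 CPM in 3D with palmitate, without overlap. The rise was 1.47-fold (log2 fold change 0.55, SE 0.0820, edgeR adjusted p = 3.09e-05). In 3D without palmitate it had 48.1, 50.9 and 52.2 CPM, and the palmitate contrast was 0.16 (interval -0.02 to 0.33, adjusted p = 0.344).

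In the annotation, 2051 of the 2582 exon bases of Nrarp are also covered by the antisense gene Gm38287, and 488 of the 8089 exon bases of Notch3 by Gm17276. Exons of Notch1 share 1068 and 414 bases with a pair of genes of the opposite strand and those of Dll1 share 867 bases with 1, while those of Notch2 share 541 bases with a gene of the same strand. The library kit keeps the strand, but the strand setting of the counting is not given in the sources used here. It is therefore not known whether reads on bases shared with the opposite strand were counted for the member, its partner or neither. For Notch2 the strand does not separate its reads from those of its partner.

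Hes1 (chr16:30064384-30067796, plus strand), the classic HES repressor, had 68.0, 50.2 and 69.8 CPM in 2D. In 3D with palmitate it had 67.5, 61.2 and 45.0 CPM, which overlaps the 2D values. The log2 fold change was -0.07, with an interval from -0.36 to 0.21 and an edgeR adjusted p of 0.641. The sign changed between alternatives, from -0.23 without replicate 2 of 2D to 0.06 without replicate 3 of 3D with palmitate. In 3D without palmitate it had 56.6, 60.7 and 54.8 CPM, and the palmitate contrast was 0.05 (interval -0.24 to 0.33, adjusted p = 0.902). Per kilobase the mean of Hes1 was 30.8 CPM in 2D, 28.2 in 3D and 28.4 in 3D with palmitate, above each receptor and ligand in all 3 conditions.

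Hey1 (chr3:8663359-8667256) and Hey2 (chr10:30832359-30842801), both on the minus strand and both hairy-related repressors known from the heart and vessels, were barely detected. Hey1 had 6, 9 and 6 reads in 2D, 11, 5 and 6 in 3D and 22, 5 and 4 in 3D with palmitate. Hey2 had 4, 8 and 3 reads in 2D, 3, 1 and 2 in 3D, and 8, 1 and 0 in 3D with palmitate, where the 0 allows up to 0.459 CPM at 3 counts (counting error only). No difference between conditions was detectable at this depth in either gene with all 9 libraries. With no filter on low counts the edgeR adjusted p of 3D over 2D was 0.102 for Hey1 (log2 fold change 0.96) and 0.763 for Hey2 (-0.33). For palmitate in 3D it was 0.602 and 0.759. Hey1 entered the test in 8 of the 9 fits that left out a library and was called higher in 3D than in 2D in 3 of them, without replicate 1 of 3D (adjusted p = 0.0443), replicate 2 of 3D with palmitate (0.0207) or replicate 1 of 2D (0.0336).

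The bases before the start sites of Notch3, Nrarp and Hey2 are shown because Notch3 moved in both comparisons, Nrarp was the target that rose, and Hey2 was the member with a letter match for RBPJ. They are RefSeq windows of GRCm38.p6, printed 5′ to 3′ on the gene's strand, with 250 bases before the annotated start and 10 after it. Capitals mark TGGGAA, the core letters of the RBPJ motif, searched on both strands (its reverse complement is TTCCCA).
Notch3, chr17:32166881-32167140, minus strand: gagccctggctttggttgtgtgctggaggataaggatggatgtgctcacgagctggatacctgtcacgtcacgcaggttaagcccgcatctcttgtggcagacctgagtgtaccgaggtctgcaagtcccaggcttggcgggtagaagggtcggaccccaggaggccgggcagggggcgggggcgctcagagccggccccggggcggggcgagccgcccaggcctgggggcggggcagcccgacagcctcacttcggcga
Nrarp, chr2:25180508-25180767, plus strand: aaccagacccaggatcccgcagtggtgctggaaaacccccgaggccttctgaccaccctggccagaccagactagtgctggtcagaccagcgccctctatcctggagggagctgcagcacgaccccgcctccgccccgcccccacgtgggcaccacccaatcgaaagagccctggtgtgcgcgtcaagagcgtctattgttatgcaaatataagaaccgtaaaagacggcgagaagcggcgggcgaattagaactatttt
Hey2, chr10:30842774-30843033, minus strand: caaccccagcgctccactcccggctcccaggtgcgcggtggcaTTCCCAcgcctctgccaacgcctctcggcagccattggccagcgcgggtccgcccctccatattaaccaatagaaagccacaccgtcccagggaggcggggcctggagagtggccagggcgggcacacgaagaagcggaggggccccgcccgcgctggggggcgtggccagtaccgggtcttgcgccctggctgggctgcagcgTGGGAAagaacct

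Over windows of 300 bases (250 before and 50 after the start), 8 of the 10 members had an entry, with 9 windows between them, and Hes1 and Hey1 had none. Hey2 was the only one with TGGGAA, with 2 matches whose first bases lie at -207 (minus strand of the gene) and -3. Of all 32851 windows, 25.6% held at least 1 match and 3.79% at least 2. The longer GTGGGAA, which contains TGGGAA, was in the Hey2 window and in 6.38% of all windows. The windows of Notch3 and Nrarp held neither, which says only that these letters are not in these windows.

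The wider pathway was followed over 65 other genes grouped by role, of which 55 were tested. In 3D against 2D with palmitate 40 of the 55 passed, 30 higher and 10 lower, beside 68.3% of all tested genes, and their median log2 fold change was 0.23. Once the GC and length trend was removed, the split was 20 higher and 17 lower, in a fit where calls over all genes also moved towards lower, to 3866 higher and 5162 lower. Among the remaining ligands and receptors, Dll4, the endothelial Delta-like ligand, had 3.87 ± 0.436 CPM in 2D and 10.5 ± 0.974 CPM in 3D with palmitate (log2 fold change 1.45, SE 0.169, edgeR adjusted p = 2.78e-06). Notch4, a receptor known from endothelium and from mouse mammary tumours, had 2.83 ± 1.10 and 10.1 ± 2.81 CPM (1.83, SE 0.237, adjusted p = 8.30e-06). All 4 receptors were thus higher in 3D, and so were 3 of the 4 tested ligands. Neither gene passed with palmitate in 3D, at 0.19 (adjusted p = 0.585) for Dll4 and 0.00 (0.999) for Notch4. Dll3 had 0 to 6 reads and was not tested.

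On the signal-sending side, of 6 ligand endocytosis genes, 4 were higher and 2 lower in 3D. For this and the role lists below, the background over all tested genes was 34.5% higher and 33.9% lower. Epn2, an epsin that helps to internalise bound ligand, had 47.6 CPM in 2D and 179 CPM in 3D with palmitate (log2 fold change 1.91, edgeR adjusted p = 7.58e-12). The DLK family gene Dlk2, a non-canonical ligand held to dampen Notch signalling, went the other way, from 12.9 ± 0.476 CPM in 2D to 2.65 ± 0.440 CPM in 3D with palmitate (-2.22, SE 0.131, adjusted p = 2.33e-09). It was the only one of the 55 genes called with palmitate in 3D, where it rose from 1.56 ± 0.132 CPM (0.83, SE 0.179, adjusted p = 0.0300). DESeq2 also called 1 of the 55, beside 394 genes in all. An unadjusted edgeR p under 0.05 was found for 9 of the 55, beside 2170 of all 12575 tested genes. The Dlk2 call was lost in 10 alternatives, among them the 2 groups alone (adjusted p = 0.113), the Rn45s covariate (0.239) and every fit that left out 1 library (0.0556 to 0.128) other than replicate 3 of 3D with palmitate or of 2D.

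On the receiving side, Adam10, the protease of the first ligand-induced cut, had 166 CPM in 2D and 358 CPM in 3D with palmitate (log2 fold change 1.11, edgeR adjusted p = 3.34e-08). Adam17 was also higher (0.55, adjusted p = 0.000114), and so was Ncstn, a γ-secretase subunit (0.34, adjusted p = 0.000311). In all, 4 of 9 tested cleavage genes were higher and 1 lower, which made 55.6% called beside 68.3% of all tested genes. Once the GC and length trend was removed, 4 were higher and 2 lower. Of the fringe glycosyltransferases, which tune the choice between Delta-like and Jagged ligands, Lfng differed by 0.05 (adjusted p = 0.648) and Mfng, under 1 CPM, by 0.43 (0.475). Rfng was lower in 3D (-0.39, adjusted p = 0.0235), a call lost without replicate 2 of 3D with palmitate (0.105), without replicate 2 (0.0650) or 3 of 2D (0.0915) and with the Rn45s covariate (0.0638). Numb, an endocytic inhibitor of the receptors, differed by -0.01 (adjusted p = 0.936), and 4 of 9 trafficking and turnover genes were higher and 2 lower, or 2 higher and 3 lower once the GC and length trend was removed.

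In the nuclear complex 7 of 8 genes were higher and 1 lower, but 3 higher and 2 lower once the GC and length trend was removed. Maml3, a Mastermind coactivator, was the widest, from 22.5 CPM in 2D to 76.5 CPM in 3D with palmitate (log2 fold change 1.77, edgeR adjusted p = 1.90e-11). Maml1 was higher by 0.19 (adjusted p = 0.0169, 0.0677 without replicate 3 of 2D, 0.0826 with no filter and 0.595 after removal of the GC and length trend). Rbpj itself was at 0.19 with an adjusted p of 0.0414, which missed the threshold without any 1 of the 3D libraries, without replicate 3 of 3D with palmitate and without replicate 1 or 3 of 2D (0.0524 to 0.162). It was also missed with total-count scaling, no filter, the 2 groups alone or the replicate block (0.0508 to 0.0672), and the value turned to -0.15 once the GC and length trend was removed. Of 8 corepressors 3 were higher, and with the trend removed 0 were higher and 4 lower. Both shifts came with that of all genes, from 4335 higher and 4259 lower to 3866 and 5162.

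**Figure D4:**
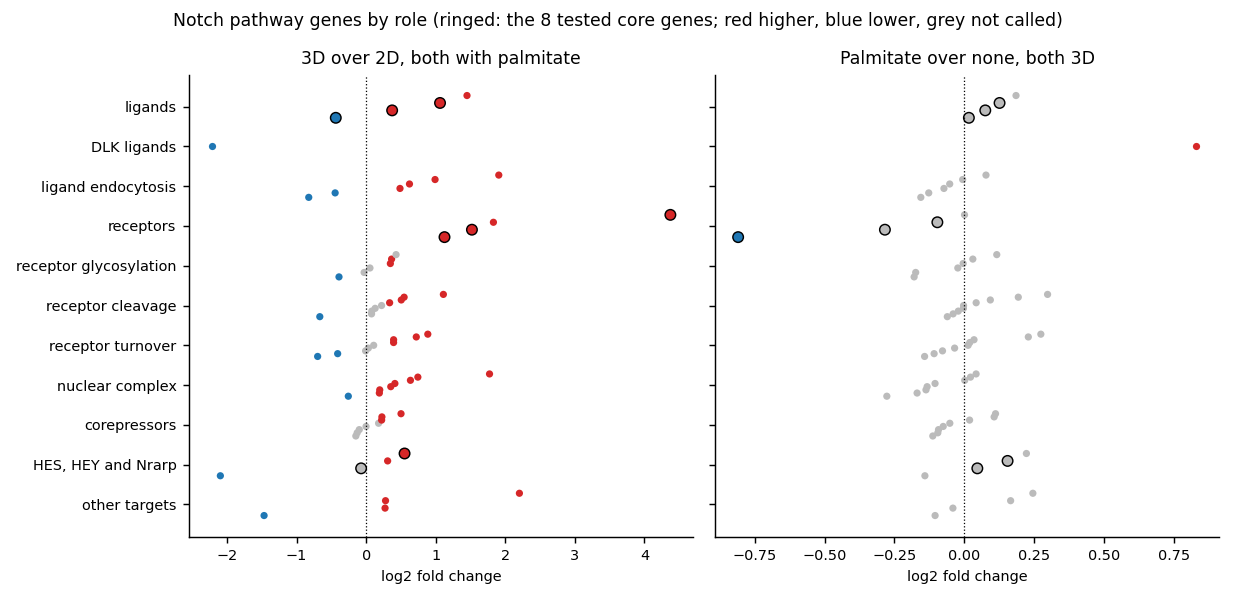
Log2 fold changes (horizontal axes) of the tested Notch pathway genes by role (vertical axis), for 3D over 2D with palmitate (left) and palmitate over none in 3D (right), with members ringed. Red and blue mark genes higher and lower at an edgeR adjusted p under 0.05. All 4 receptors are red on the left, and Notch3 and Dlk2 are the coloured points on the right.

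Of the 10 HES, HEY and Nrarp genes listed, 4 were tested, and 2 were higher and 1 lower in 3D. This made 75% called, beside 68.3% of all tested genes. The lower gene, Hes7, had 1 to 28 reads per library, with means of 1.19 CPM in 2D and 0.238 CPM in 3D with palmitate. It was thus near the detection limit, and its presence among the tested genes rested on the 2D libraries. Hes6, an inhibitor of Hes1, was 0.31 higher on the log2 scale (edgeR adjusted p = 0.0208), a call lost without replicate 1 of 3D with palmitate (0.14, adjusted p = 0.265) or of 2D (0.25, 0.0853). Hes5 and Heyl had 0 reads in every library. Among 4 other reported Notch targets, 3 were higher and 1 lower. Cdkn1a, the cell cycle inhibitor p21, had 19.2 CPM in 2D and 87.3 CPM in 3D with palmitate (2.20, adjusted p = 4.66e-12), whereas Myc had 461 and 166 CPM (-1.47, adjusted p = 3.19e-10). Both answer to many pathways besides Notch. With palmitate in 3D neither passed, with Cdkn1a at 0.25 (adjusted p = 0.0713) and Myc at 0.17 (0.25), except that Cdkn1a passed without replicate 3 of 3D with palmitate (0.27, adjusted p = 0.0133) and once the GC and length trend was removed (0.21, 0.0326).

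The genes most like Notch3 over the 9 libraries, by Pearson correlation of log2 CPM, were Arl4c (r = 0.998), Pkp1 (r = 0.997) and Bpifb4 (r = 0.996). These are descriptions over 9 libraries that share the 3 conditions. Their log2 fold changes were 0.87, 1.63 and 7.61 for 3D over 2D with palmitate and -0.17, -0.31 and -1.31 for palmitate in 3D.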

How the data were processed

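For the 9 libraries the deposited values were unnormalized counts of reads on each gene. Per the methods and the submitters' processing notes, 50 bp single-end reads from a stranded poly(A) kit were cleaned with fastq-mcf, checked with FastQC 0.11.9, aligned to GRCm38 with HISAT2 2.1.0 and counted with HTSeq. The annotation and strand setting of the counting are not given in the sources used here.

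Counts were fitted in R 4.3.3 with edgeR 4.0.16: filterByExpr by condition, TMM scaling, and a quasi-likelihood model of all 9 libraries with condition as the only term. Adjusted p-values are Benjamini-Hochberg values over all 12575 tested genes. The SE was obtained as |log2 fold change| over the root of the F statistic. Levels per kilobase used the union of exons of the GRCm38 annotation (GENCODE M21), which also gave the positions. The code was tested on simulated data. Alternatives included DESeq2 1.42.0, other scalings and filters, covariates and leaving out each library.

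The members and lists were chosen with earlier results of these data known. Beside the members, the rule named 16 pathway genes whatever their values (1 is not reported here), the 6 called pathway genes with the smallest p per comparison, and the 3 genes most correlated with a member called in both comparisons. No source says that libraries came from separate cultures, so p-values measure the spread between these libraries, which may be technical. Libraries of one condition differed by more than sampling noise (chi-square per gene of 3.89 to 19.7). Replicate numbers showed no pairing in the values: deviations of same-numbered libraries correlated at -0.24 to 0.15 and of differently numbered ones at -0.17 to 0.28. With 3 libraries per condition this cannot exclude that libraries were paired.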

Additional observations from a re-analysis of the deposited data

How the results depend on the processing

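In 3D against 2D with palmitate, the 7 called members passed in every alternative with the same direction, except that Jag1 and Jag2 fell under a minimum absolute log2 fold change of 0.5. That minimum left 21 of the 40 other pathway genes and 5113 of all 8594 called genes. Without division by length the Notch3 share of the receptor sum differed by 1.85 rather than 2.75 points. With palmitate in 3D the counts moved more, from 1 member, 1 other pathway gene and 275 genes in all. No filter on low counts gave 2, 2 and 617, the 2 groups alone 0, 0 and 77, the replicate block 0, 0 and 111, the Rn45s share as covariate 0, 0 and 44, and removal of the GC and length trend 2, 4 and 874. DESeq2 called 2 members, 1 other pathway gene and 394 genes in all, and the 0.5 minimum left 119 genes in all. Leaving out 1 library gave 0 to 2 members, 0 to 10 other pathway genes and 71 to 1901 genes in all, with 10 and 1901 both without replicate 3 of 3D with palmitate, the shallowest library. The cause was not tested. The replicate block changed no member's call in 3D against 2D. Hey1 and Hey2 were not in the main test, at no more than 22 and 8 counts per library and condition means of at most 0.601 and 0.240 CPM.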
